A study of Mus musculus with 6 samples.

Results

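The genes described here build elastic fibres or crosslink them: elastin (Eln), fibrillin 1 (Fbn1), the fibulins Fbln1, Fbln2 and Fbln5, the microfibril proteins Mfap4, Mfap5 and Emilin1, and the lysyl oxidases Lox and Loxl1. They were chosen by name, and every probe that the platform annotation pairs with one of these 10 genes was taken, which gave 8 measured genes of the 9425 genes named on the array. They had 10 probes among 25697. No probe used here was paired with Fbn1 or Fbln5, so these 2 genes were not analysed here. The values come from whole adult lungs of 6 mice, a single Illumina bead array per mouse. All 6 mice were homozygous for the floxed Tmem100 allele, labelled Tmem1002loxP/2loxP, and all were given tamoxifen (0.1 mg per g body weight) in 2 injections into the peritoneum, with lungs taken 7 days later. The 3 mutant mice also carried a copy of ROSA26 CreER (ROSA26+/CreER), a recombinase that tamoxifen activates and that the ROSA26 locus drives broadly rather than in a single cell type. The 3 control mice carried no CreER, so effects of activated CreER itself and of the loss of Tmem100 cannot be told apart. The sources used here do not give strain, sex or exact age.

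Elastic fibres give lung tissue, airways and vessel walls their recoil. Fibroblasts, smooth muscle cells and some other cells secrete tropoelastin, which gathers on a scaffold of fibrillin microfibrils with the help of fibulins and microfibril-associated proteins. Lysyl oxidases then oxidise lysines of tropoelastin so that the chains crosslink, and Lox does the same for fibrillar collagens. Assembled fibres are long-lived, and what the arrays measured is RNA, not fibre content.

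The arrays had median intensities between 333 and 363, with 13354 to 13749 probes detected in controls and 12781 to 13046 in mutants. The lung markers Sftpc, Sftpb, Scgb1a1 and Ager were bright on every array, with normalized log2 intensities of at least 13.06. The epithelial junction gene Cldn18 was also detected on every array and was 1.73-fold lower in mutants (log2 -0.79 ± 0.17, adjusted p = 0.0168). The targeted gene Tmem100 stood at 11.16, 15.36 and 10.69 in controls 1 to 3 and at 8.44, 9.43 and 9.51 in mutants 1 to 3. Every mutant was below every control, but the difference of -3.28 ± 1.15 did not pass (limma, adjusted p = 0.0749), and control mouse 2 stood well above the other controls. Values below are normalized log2 intensities, in which a step of 1 is a doubling. The error given with a difference is its standard error from the fit (3 mice against 3), adjusted p-values come from limma over all tested probes, and a difference passed at an adjusted p below 0.05.

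Of the 8 measured genes, each taken by its brightest probe, 7 fell in mutant lungs and Lox rose, where 27.2% of the 9383 genes with a tested probe passed, 14.5% as lower and 12.7% as higher. In the 7 genes that fell every mutant lay below every control, as in 24.5% of all genes, and for Lox every mutant lay above every control, as in 24.6%. The median difference over the 8 genes was -1.59, against 0.01 over all genes. In the set, 5 genes were at least 2-fold lower (Mfap4, Fbln1, Mfap5, Loxl1 and Fbln2), as were 4.84% of all genes. These 8 probes were detected on all 6 arrays. Fbln1 and Fbln2 each had a second, dim probe, which is described with its gene and is not counted here, since the mutants' level lay near or below detection. Over single probes, 26.7% of the 13361 tested passed, 13.5% as lower, 13.3% as higher and 4.43% as at least 2-fold lower, and mutants lay below controls without overlap in 23% and above in 24.6%. In whole lung, fewer cells of a type and less RNA per cell cannot be told apart.

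**Figure D1:**
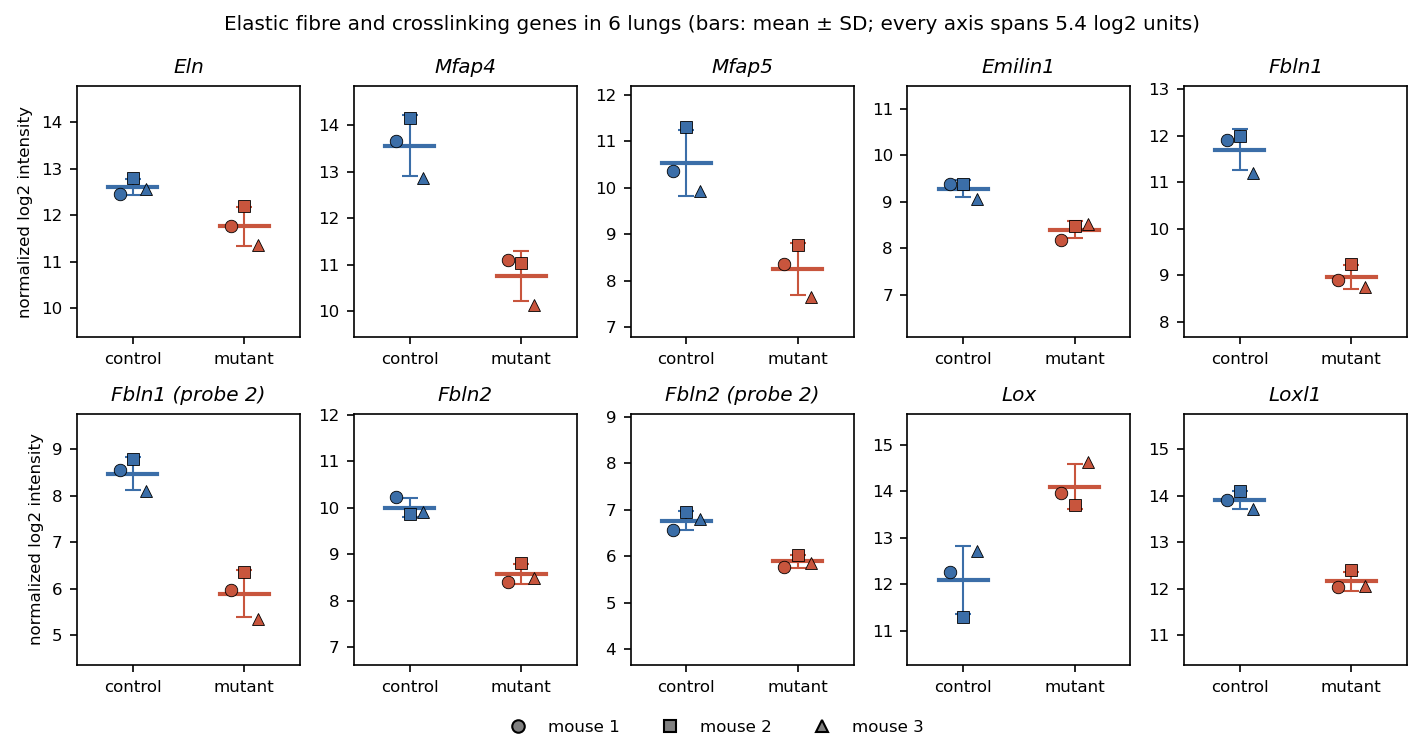
Normalized log2 intensity of the 10 probes in each mouse, with bars for the group mean and SD. Symbols mark the mouse, and a step of 1 is a doubling. Only Lox is higher in the mutants, and in no probe do the groups overlap.

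Eln, which encodes tropoelastin, the soluble precursor of the fibre core, fell by less than 2-fold. It stood at 12.45, 12.80 and 12.55 in controls 1 to 3 and at 11.75, 12.18 and 11.35 in mutants 1 to 3. The highest mutant was 0.27 below the lowest control, the narrowest gap of the 10 probes. Mutants averaged 1.79-fold lower (log2 -0.84 ± 0.22, adjusted p = 0.0321). This call was the least steady of the set. It was lost when control mouse 1, 2 or 3 or mutant mouse 1 or 3 was left out, with log2 differences of -0.63 to -0.91 and adjusted p up to 0.0959. It was also lost on the authors' deposited log2 values (adjusted p = 0.0590), a fit that likewise lacks mutant mouse 1.

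Mfap4, a microfibril-associated glycoprotein that binds tropoelastin and fibrillin, had with Fbln1 the largest falls of the set. Their order turned with array weights and without control mouse 2 or mutant mouse 3. Mfap4 was at 13.66, 14.15 and 12.85 in controls 1 to 3 and at 11.09, 11.03 and 10.13 in mutants 1 to 3. The groups were 1.76 apart at their nearest points, and the mutant mean was 6.99-fold lower (log2 -2.81 ± 0.38, adjusted p = 0.00507). Of all 13361 tested probes, 30 had a difference of that size or larger in either direction.

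Mfap5, also called MAGP-2, binds fibrillin microfibrils. It was at 10.37, 11.32 and 9.93 in controls 1 to 3 and at 8.36, 8.77 and 7.67 in mutants 1 to 3, with no overlap. The fall was 4.85-fold (log2 -2.28 ± 0.40, adjusted p = 0.00939). It was 3.01-fold without background correction and 3.02-fold in the deposited processed values.

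Emilin1, a glycoprotein found between elastin and the microfibrils, changed by a smaller amount. Its values were 9.38, 9.39 and 9.06 in controls 1 to 3 and 8.19, 8.47 and 8.53 in mutants 1 to 3. They were tight within both groups, with an SD of 0.18 in each. The mutant mean was 1.84-fold lower (log2 -0.88 ± 0.15, adjusted p = 0.00833), and the difference passed under every alternative tried, its adjusted p reaching 0.0389 without control mouse 1. The fold was 1.46 without background correction and 1.40 in the deposited processed values.

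Fbln1, a fibulin of elastic fibre cores and basement membranes, was measured by a bright and a dim probe. The bright probe (ILMN_2870672) was at 11.90, 11.998 and 11.20 in controls 1 to 3 and at 8.89, 9.25 and 8.74 in mutants 1 to 3. That gap of 1.95 between the groups was the widest of the 10 probes. The mutant mean was 6.67-fold lower (log2 -2.74 ± 0.24, adjusted p = 0.00265).

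The dim Fbln1 probe (ILMN_2728985) was detected on all 3 control arrays and on 1 mutant array. It was at 8.55, 8.78 and 8.09 in controls and 5.98, 6.36 and 5.34 in mutants, a 5.98-fold lower level (log2 -2.58 ± 0.29). Both probes put the mutants below the controls and passed. Because the dim probe is near background in mutants, its fold depended on background correction and was 1.93 without it and 1.89 in the deposited processed values.

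Fbln2, a fibulin of vessel walls that binds tropoelastin and fibrillin, also had 2 probes. The brighter (ILMN_1245307) was at 10.24, 9.86 and 9.91 in controls 1 to 3 and at 8.41, 8.82 and 8.49 in mutants 1 to 3. The mutants were 2.69-fold lower (log2 -1.43 ± 0.16, adjusted p = 0.00360), with a gap of 1.04 between the groups. In the deposited processed values the fold was 1.90. The dimmer probe (ILMN_3132949) was detected on all 3 control arrays and on no mutant array, so it entered the test through the controls alone. It stood at 6.56, 6.95 and 6.80 in controls. With the main background correction its bound was at least 1.60-fold lower in mutants, which did not hold under the alternatives below. Its adjusted p of 0.00747 (limma) is a description only, because of how the probe entered the test. The measured mutant values were 5.78, 6.04 and 5.85. The call of the dimmer probe ended with the deposited processed values (adjusted p = 0.122), where the fold was 1.15, and without background correction the fold was 1.17.

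Upstream sequence was at hand in the RefSeq tables (GRCm38.p6) for 3 of the measured genes, Fbln1, Fbln2 and Emilin1, which all fell. The windows of 250 bases before the annotated starts were searched on both strands for the SMAD element CAGAC, the GC box GGGCGG, the TATA box TATAAA and the CArG box, a motif of smooth muscle genes. The search was a description of letters and shows no binding. SMAD proteins carry signals of the TGF-beta and BMP receptors, and TGF-beta is a known inducer of matrix genes, which is why their element is shown. The Fbln1 window lies before the first base of the RefSeq gene, at chr15:85205699-85205948 on the plus strand. Capitals mark its 2 SMAD element matches, both on the minus strand, and it holds no GC, TATA or CArG match:
Fbln1: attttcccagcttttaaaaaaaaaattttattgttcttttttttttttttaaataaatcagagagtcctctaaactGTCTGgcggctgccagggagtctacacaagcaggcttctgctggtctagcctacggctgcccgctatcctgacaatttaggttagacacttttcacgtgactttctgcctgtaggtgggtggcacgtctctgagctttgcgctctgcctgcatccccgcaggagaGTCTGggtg

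The Emilin1 window also held 2 SMAD element matches, and the Fbln2 window held 1 GC box and no SMAD element. Their annotated starts lie 399 and 304 bases inside the RefSeq span of the gene, so only the matches with their flanks are shown, matches in capitals, all from the plus strand of the genome. The Emilin1 sites lie at chr5:30913595-30913618 and chr5:30913648-30913671 and the Fbln2 site at chr6:91212739-91212762:
Emilin1 site 1: cccagagaaCAGACtcccctcaga
Emilin1 site 2: agggagggaCAGACaggagcctga
Fbln2 site: atcgaggccCCGCCCtgaggcggg
Among all 32851 windows of this length, 42.2% held a SMAD element and 32.7% a GC box, so either match is common. No match to the TATA box, held by 12.4% of all windows, or to the CArG box, held by 1.47%, lay in these windows, nor in the window of the second annotated start of Fbln1, which overlaps the printed one, holds the same 2 SMAD elements and adds 1 GC box.

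The lysyl oxidases moved apart. Lox, the founding member of the family, was at 12.26, 11.30 and 12.73 in controls 1 to 3 and at 13.97, 13.70 and 14.64 in mutants 1 to 3. The lowest mutant was 0.97 above the highest control, and the mutant mean was 4.02-fold higher (log2 2.01 ± 0.39, adjusted p = 0.0126). With any 1 mouse left out the rise still passed, with log2 differences of 1.61 to 2.32. On the deposited linear scale the Lox probe spanned 2696 to 6928 in controls and 13076 to 24728 in mutants.

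Loxl1, which mice need to renew elastic fibres in adult tissues, fell. It was at 13.91, 14.09 and 13.71 in controls 1 to 3 and at 12.03, 12.39 and 12.05 in mutants 1 to 3, tight within each group (SD 0.19 and 0.20). The gap between the groups was 1.32 and the mutant mean was 3.36-fold lower (log2 -1.75 ± 0.16, adjusted p = 0.00265). Under all alternatives Loxl1 kept a difference between -1.87 and -1.63 and passed.

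**Figure D2:**
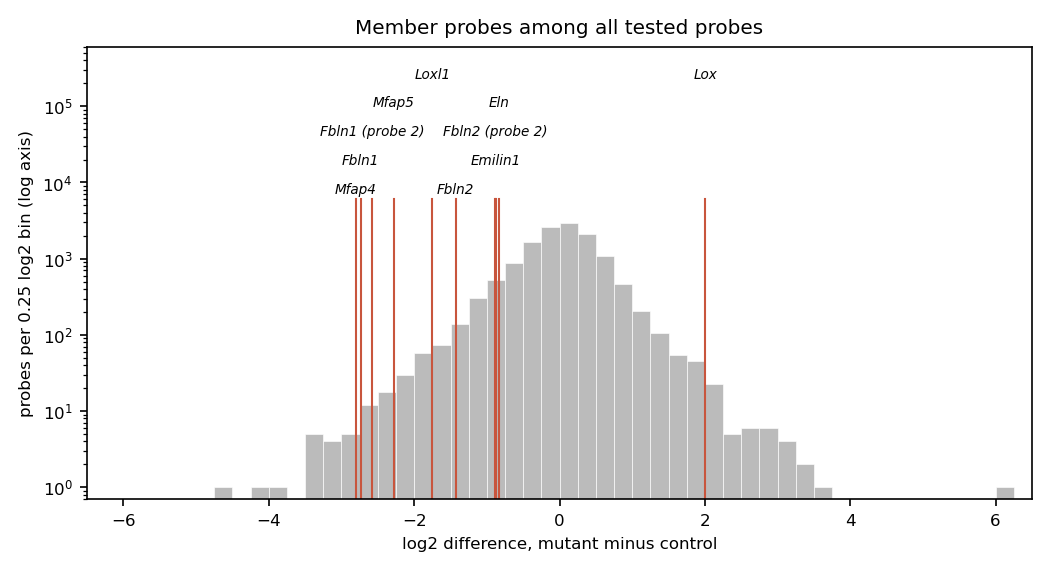
Number of tested probes per 0.25 log2 bin of the difference between mutant and control lungs (log axis), with a line at each probe of the set. The set lies in both tails, 9 probes between -2.81 and -0.84 and Lox at 2.01.

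Within each group the mice also differed from each other, and Lox ran against the other genes there too. Of the 9 probes other than Lox, control mouse 2 was the highest control in 8 and control mouse 3 the lowest in 6. Mutant mouse 2 was the highest mutant in 7 and mutant mouse 3 the lowest in 5. For Lox the order was turned: control mouse 2 and mutant mouse 2 were the lowest of their groups and control mouse 3 and mutant mouse 3 the highest. The 9 probes include the dim Fbln1 and Fbln2 probes, detected on 1 and 0 mutant arrays, so the order of mutants in these lies near background. How common such orders are among all probes was not looked at. The mouse numbers only name animals and pair none of them across groups. Mfap4, Mfap5 and Lox spread most, by 1.30, 1.38 and 1.43 among controls, while Emilin1 spread by 0.32, Eln by 0.35 and Loxl1 by 0.37.

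**Figure D3:**
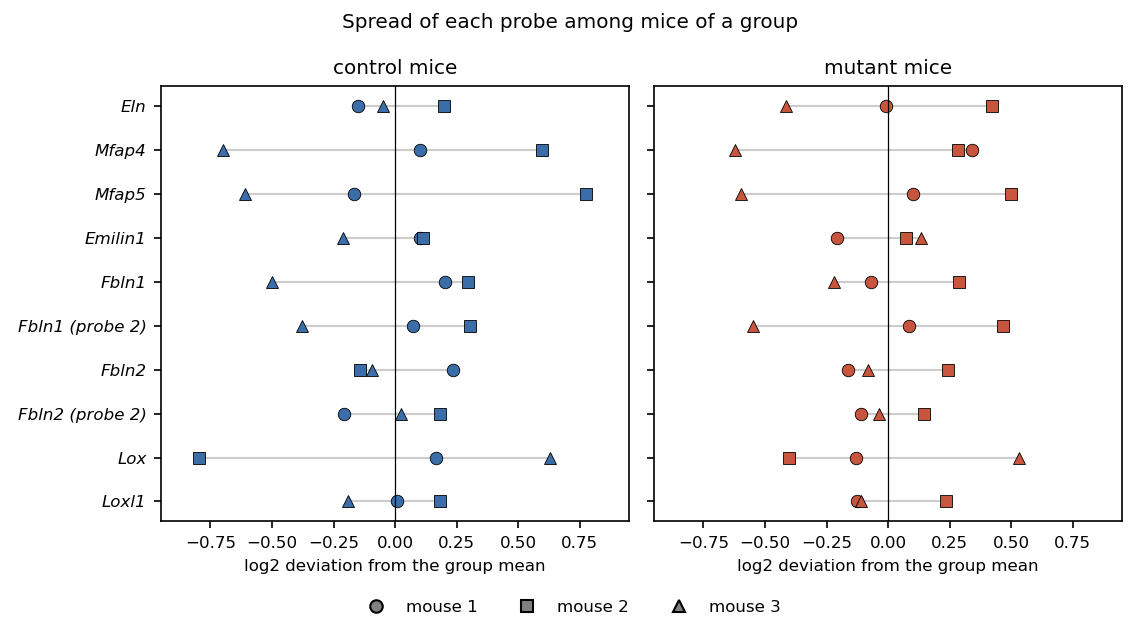
Deviation of each mouse from its group mean for each probe, controls on the left and mutants on the right, in log2 units. For most probes mouse 2 lies to the right and mouse 3 to the left, and for Lox the reverse.

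Of a list of 30 other genes of elastic fibres and microfibrils, 16 were measured, 5 fell, none rose and 11 did not pass, with a median of -0.51, where 14.5% of all genes passed as lower and 12.7% as higher. Adamtsl2, a secreted protein that binds fibrillin and latent TGF-beta binding protein, fell most among those that passed. It was at 10.04, 10.20 and 9.90 in controls 1 to 3 and at 8.60, 9.03 and 8.74 in mutants 1 to 3. The fall was 2.39-fold (log2 -1.26 ± 0.15, adjusted p = 0.00390).

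The other 4 that fell were named after their values were seen. They were tenascin X (Tnxb, log2 -0.89 ± 0.11), Ltbp4, which helps fibulins assemble elastin (-0.81 ± 0.18), the endothelial Mmrn2 (-0.62 ± 0.14) and the proteoglycan biglycan (Bgn, -0.53 ± 0.14). Without control mouse 1 or without control mouse 2 only Adamtsl2 and Tnxb of the list passed, where 12.5% and 15.8% of all probes passed. With array weights 9 fell and 1 rose, but that fit passed 37.3% of all probes, against 26.7% in the main fit. Mfap2, the close relative of Mfap5 also known as MAGP-1, differed by 0.14 ± 0.11 and decorin (Dcn) by 0.22 ± 0.13, and neither passed. Ltbp1 and Ltbp3, which anchor latent TGF-beta to the matrix, differed by -0.32 and -0.48, Ltbp2 by 0.55, and none of these passed. Ltbp3 lay near the threshold (adjusted p = 0.0512). It passed with an offset of 50 (0.0394), without background correction (0.0236), with the stricter filter (0.0363) and with array weights (0.0350). It also passed with the variance trend and robust fit (0.0231) and with the deposited processed values (0.0349). Under the other alternatives its adjusted p was 0.0682 to 0.127. Ltbp1 and Ltbp2 passed only with array weights (0.0216 and 0.0337).

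Among genes of elastin degradation and its inhibition the share that passed was near that of all genes. Of 12 listed, 11 were measured, 1 fell, 2 rose and 8 did not pass, where 27.2% of all genes passed in either direction. The gelatinase gene Mmp2 was at 12.996, 13.15 and 12.62 in controls 1 to 3 and at 11.79, 11.59 and 11.18 in mutants 1 to 3. It was 2.64-fold lower (log2 -1.40 ± 0.21, adjusted p = 0.00589). The metalloproteinase inhibitor gene Timp3 rose by 0.63 ± 0.11 (adjusted p = 0.00956) and the cathepsin gene Ctsk by 0.46 ± 0.12 (adjusted p = 0.0273), both named after their values were seen. The call of Ctsk ended when either of control mice 1 and 2 or of mutant mice 1 and 2 was left out, with log2 differences of 0.42 to 0.48 and adjusted p up to 0.101. The largest difference of the list was that of the cathepsin gene Ctsl, at 7.51, 7.19 and 7.601 in controls 1 to 3 and 7.83, 9.44 and 10.10 in mutants 1 to 3. Every mutant was above every control, but the log2 difference of 1.69 ± 0.53 did not pass (adjusted p = 0.0532). It passed with an offset of 50 (0.0436) and with the stricter filter (0.0411). It also passed without mutant mouse 1 (0.0141) and with the deposited processed values (0.00964), a fit that likewise lacks that mouse. Its adjusted p was up to 0.137 under the other alternatives. The neutrophil elastase gene Elane differed by -0.41 ± 0.28 and did not pass.

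**Figure D4:**
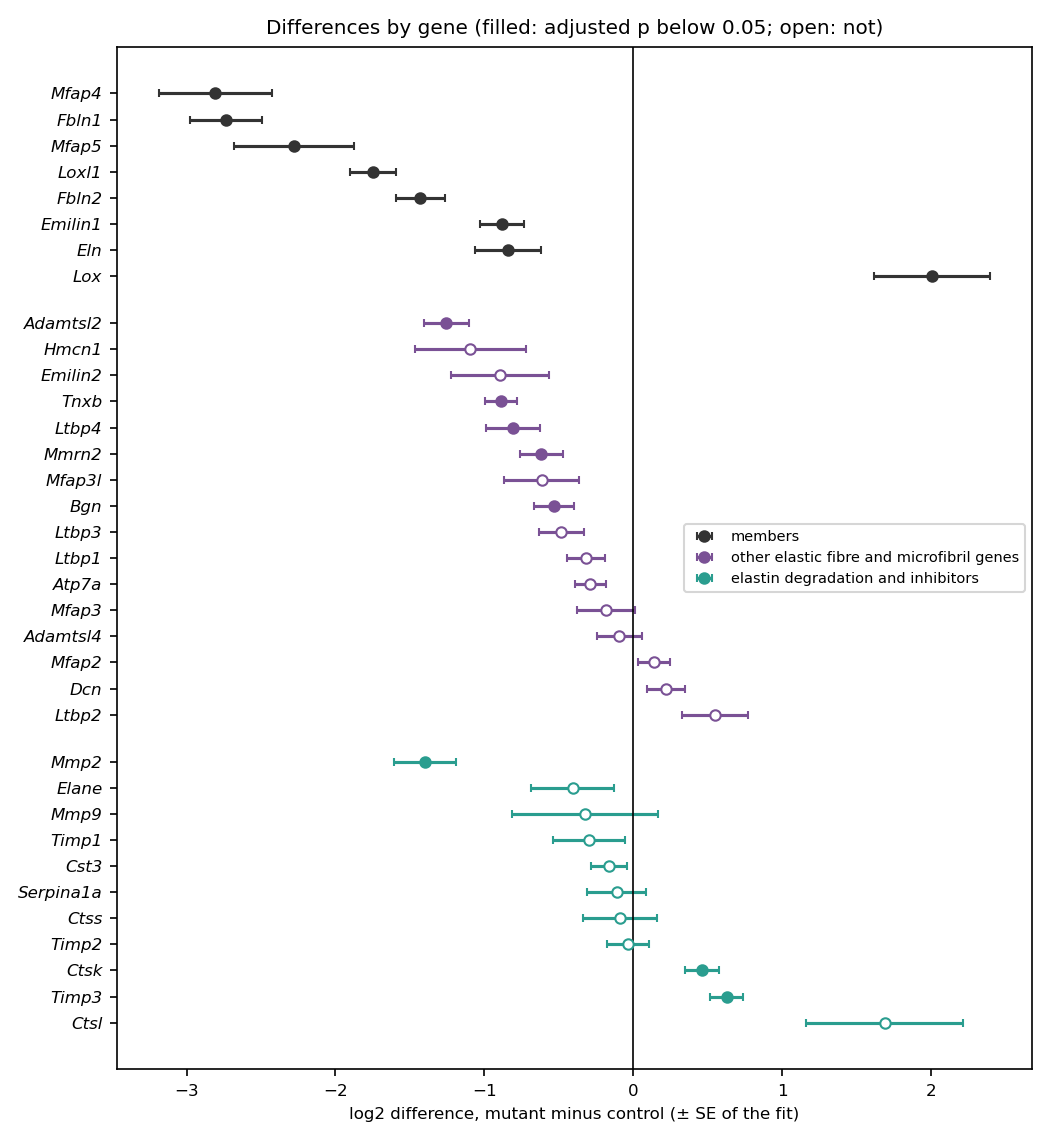
Log2 difference between mutant and control lungs with the standard error of the fit, for the 8 genes of the set, 16 further elastic fibre genes and 11 genes of elastin degradation and its inhibition. Filled points passed an adjusted p of 0.05. Lox is the single gene of the set to the right of 0, and Adamtsl2 and Mmp2 lead the falls of the other lists.

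Many markers of the cells that make elastic fibres fell as these genes did, and their part in the falls was not tested. Each count of a marker list below stands against 14.5% of all genes that passed as lower and 12.7% as higher. Of 8 measured smooth muscle markers 7 fell and none rose, with a summed normalized intensity of 39853 to 58304 in controls and 17840 to 22978 in mutants. Acta2, the smooth muscle actin gene, was 2.59-fold lower and smoothelin (Smtn) 1.75-fold lower. Of 7 alveolar fibroblast markers 5 fell (Slc7a10, Tcf21, Wnt2, Npnt and Gpc3) and none rose, and their sum was 81899 to 90573 in controls and 73138 to 78704 in mutants. The brightest, Inmt, differed by -0.04 ± 0.11 and did not pass, whereas the surface proteoglycan gene Gpc3 fell by 0.57 on the log2 scale. Pdgfra, also bright at a mean of 12.94 in controls and 12.90 in mutants, differed by -0.04 ± 0.17 and did not pass.

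Adventitial fibroblast markers were split, where 14.5% of all genes passed as lower and 12.7% as higher. Of 10 measured, 7 fell and 1 rose, and the mean of their log2 values was 9.86 to 10.38 in controls and 8.70 to 9.30 in mutants. The summed intensity was 23487 to 30270 in controls and 30854 to 37487 in mutants, the other way round, since the brightest markers were Dcn, which did not pass, and Igfbp6, a binding protein of insulin-like growth factors that rose 2.35-fold. Of 8 arterial endothelial markers 6 fell and none rose, with a sum of 29945 to 37799 in controls and 12363 to 15365 in mutants. Hey1, a Notch target, was 1.81-fold lower and the chemokine gene Cxcl12 3.69-fold lower.

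The counts past the threshold moved with single mice, while the share of all probes that passed went from 26.7% to between 12.5% and 23%. Alveolar fibroblast markers that passed as lower numbered 3 without control mouse 1, control mouse 2, mutant mouse 1 or mutant mouse 3, with list medians of -1.04 to -0.89 against -0.95 with all mice. Adventitial markers numbered 4 when either of control mice 1 and 2 or mutant mouse 1 was left out, the medians being -1.25 to -0.96 against -1.16. Arterial markers numbered 2 without control mouse 1, with a median of -0.86 against -0.90. Smooth muscle markers numbered 5 or 6 with any mouse left out. Of 8 pericyte markers 3 fell (Higd1b, Cspg4 and Cox4i2) and 1 rose, Rgs5. No control array detected Rgs5, so it entered the test through the mutants alone. The pericyte sum was 5809 to 6717 in controls and 4733 to 5294 in mutants. Notch3 differed by -0.32 without passing and Cox4i2 by -0.42 with an adjusted p of 0.0363. No pericyte marker passed as lower without control mouse 1 or mutant mouse 1, and 1 did without control mouse 2, while the list median was -0.36, -0.37 and -0.47 against -0.40 with all mice. Of 7 mesothelial markers 4 fell, among them Lrrn4, which no mutant array detected, and 1 rose, Krt19 (sum 11405 to 14846 in controls, 6897 to 9814 in mutants), led in brightness by Upk3b, 2.91-fold lower, and Upk1b, 1.62-fold lower. Mesothelial markers past the threshold as lower numbered 2 when the same mice were left out in turn, the medians being -0.68 to -0.60 against -0.70.

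Markers of muscle, fat, cartilage and leukocytes were looked at in the same way, where 14.5% of all genes passed as lower and 12.7% as higher. The adipocyte, cartilage and leukocyte lists gave 1 call each among 3 or 4 genes, too few to set apart from that share. Of 8 cardiac markers 4 fell (Myl3, Actc1, Ttn and Myl4) and none rose, with sums of 35366 to 75029 in controls and 13985 to 26619 in mutants, Myl4 being 2.35-fold lower and Nppa differing by -0.74 without passing. Of 3 genes listed as skeletal muscle markers 2 fell (sum 2304 to 9114 in controls, 461 to 1018 in mutants). These were myoglobin (Mb), by 2.36 on the log2 scale, and Ckm, which no mutant array detected. Neither is particular to skeletal muscle, and Tnni2 did not pass. Of 3 adipocyte markers 1 fell, Adipoq, and Cidec did not pass (sum 468 to 4652 in controls, 231 to 354 in mutants). Of 3 cartilage markers none fell and 1 rose, Cytl1, the 2 brightest, Chil1 and Chad, differing by -0.09 and -0.18. Their sums were 43934 to 55283 in controls and 43586 to 54545 in mutants. That sum follows Chil1, at 15.33 to 15.68 over the 6 arrays against 10.34 to 11.28 for Chad. The listed Acan, Col2a1, Comp, Matn1 and Sox9 were not measured, so the sum says little about cartilage. Of 4 leukocyte markers 1 fell, Cd79a, and Lyz2 (-0.40) and S100a8 (0.23) did not pass, with sums of 32534 to 59125 and 30011 to 43057. The adipocyte call was lost without control mouse 1 or any 1 mutant mouse, and the leukocyte call without any 1 mouse but control mouse 3. The skeletal calls numbered 1 without control mouse 2 or any 1 mutant mouse, and 3 without control mouse 3. None of the measured markers of these lists was undetected on all 6 arrays.

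Control mouse 2 had the highest cardiac mean among controls and the highest adipocyte mean, and control mouse 3 the highest skeletal mean. Without control mouse 2 the falls of Mfap4 (log2 -2.51), the brighter Fbln1 probe (-2.59), Mfap5 (-1.89), Loxl1 (-1.66), the brighter Fbln2 probe (-1.50) and Emilin1 (-0.83) and the rise of Lox (1.61) all still passed. That left Eln, at -0.74, as the only gene of the set below the call. Without control mouse 2 the list medians were still -0.91 for cardiac and -0.98 for adipocyte markers. Leaving out this mouse therefore does not separate the set from cardiac or adipocyte markers. The skeletal median was -3.29, but skeletal markers were highest in control mouse 3, so this fit cannot decide the question for them. Ckm was detected on no mutant array, Tnni2 and Adipoq on 1 and Cidec on 2, so the skeletal and adipocyte medians are of uncertain size. A link between the set and these markers was not tested.

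**Figure D5:**
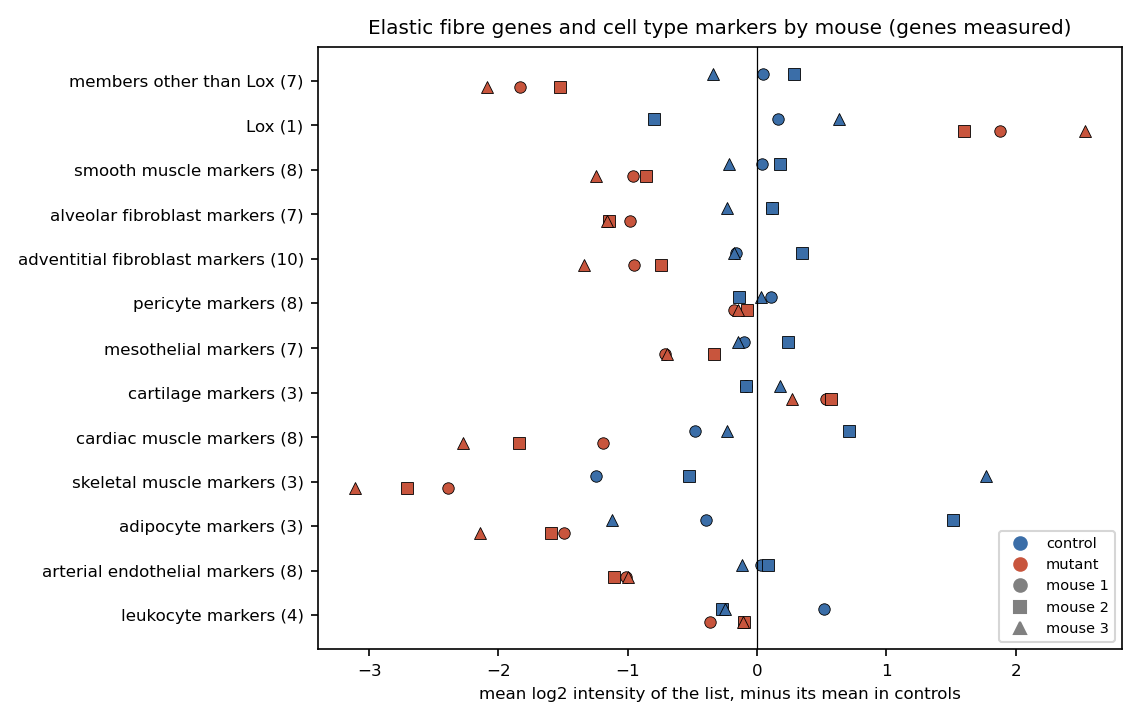
Mean log2 intensity of the 7 genes of the set other than Lox, of Lox and of each marker list in each mouse, minus the mean of the controls, with the number of genes measured in brackets. The 7 genes lie between -2.09 and -1.52 in mutants, smooth muscle markers between -1.25 and -0.86, cardiac markers between -2.28 and -1.19, skeletal markers between -3.11 and -2.39 and adipocyte markers between -2.14 and -1.49. The skeletal and adipocyte means in mutants rest partly on values near background. Without background correction the median difference went from -2.82 to -1.49 for skeletal and from -1.48 to -0.61 for adipocyte markers. Pericyte markers lie between -0.18 and -0.08, a mean that includes Rgs5 at 2.22, while 7 of the 8 differ downward. No control array detected Rgs5, so its size is a bound, a rise of at least 3.45-fold, and the pericyte mean is uncertain.

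The genes whose profile over the 6 arrays was most like that of Eln or Lox were found by the root mean square difference after each gene was centred on its own mean, among 9240 genes. For Eln the nearest were the peptidase gene Pgpep1 (0.071), the transcription factor gene Irf4 (0.095), Samd9l (0.095), Prr15 (0.097) and Sephs1 (0.098). None of these encodes a known part of the elastic fibre. For Lox the nearest were the potassium channel gene Kcnk1 (0.217), the kinase gene Map3k6 (0.217), the metallothionein gene Mt2 (0.231), Cbs of cysteine synthesis (0.249) and the sphingosine kinase gene Sphk1 (0.2502). The distances were larger for Lox than for Eln, but they are not scaled to the size of a change, and Lox changed more. They therefore do not show which of Eln and Lox has the closer neighbours. Cbs was detected on 2 of 3 control arrays, and each list is a ranking of likeness without a test.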

How the data were processed

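Total RNA of 6 lungs (3 control, 3 mutant) was labelled with biotin from 550 ng per sample, per the labels' protocols. The authors deposited, per the file headers, a table without normalization that pairs each linear intensity with its detection p-value. A second deposited table holds the authors' log2 values for 13261 probes, whose columns share a single distribution of values, as quantile normalization gives. In it the columns of mutant mice 1 and 2 are identical at all 13261 probes and follow the intensities of mutant mouse 2, so it served only as an alternative, with 2 distinct mutants. The submitters' processing notes name GenomeStudio 2009.2 and R 2.4.1. Chip and scan, and whether background was subtracted, are not stated there.

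Background correction and normalization used limma 3.58.1 (neqc) under R 4.3.3, with negative controls inferred from detection p-values, an offset of 16, quantile normalization and log2. The 13361 probes detected (p below 0.05) on 3 or more of 6 arrays were tested, by lmFit and eBayes with no covariate, with Benjamini-Hochberg adjustment over all of them. Symbols came from the platform annotation of 12495 probes, 12490 of them updated by Entrez identifier through RefSeq (GRCm38.p6), so a member's probe outside that annotation is not named here. In lists, a gene was represented by its brightest tested probe. Where no array of a group detected a probe, a fold is a bound, taken per array against the lowest detected value or, if higher, the value of the probe. Folds of probes near background are uncertain, and the number of arrays limits precision. The code was tested on simulated data.

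The members, gene lists and tests were chosen with earlier results of these data known. All members were named, and of the elastic fibre and degradation lists those past the threshold and at least 2-fold changed, of each marker list the 2 brightest genes, and for Eln and Lox the 5 nearest genes without clone, locus or RIKEN names. Any other gene was named after its values were seen. Alternatives were other background corrections, scaling, filters and variance models, array weights, the deposited log2 values, a replicate block and leaving out each mouse.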

Additional observations from a re-analysis of the deposited data

How the results depend on the processing

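No probe of the set changed direction under any alternative. Under the alternatives 141 values of its probes stayed past the threshold and 7 did not, 6 of them of Eln and 1 of the dimmer Fbln2 probe. The tallies, counts and medians of the set in this section include the dim Fbln1 and Fbln2 probes. Their mutant levels lay near or below detection, and the dim Fbln2 probe entered the test through the controls alone. The median over the probes of the set was -0.96 without background correction and -0.92 with the deposited processed values, and -1.71 to -1.52 with a mouse left out. The count of probes of the set past the threshold was 9 to 10 with a mouse left out and 8 to 10 otherwise, the lowest with the deposited processed values and with the stricter filter, which left 8 probes to test. The count of other elastic fibre genes was 2 to 6 with a mouse left out and 10 with array weights. Over all probes 3573 passed (26.7%), against 1664 to 3067 with a mouse left out and 4980 (37.3%) with array weights.

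The replicate numbers of the titles did not pair the mice: same-numbered arrays had correlated deviations of -0.086 to -0.014, and 0 of 6 arrays correlated best with its own number. With the replicate block the 10 probes of the set still passed, with the same median of -1.59, as did 5 other elastic fibre genes and 2642 of all probes, while Ctsk did not (adjusted p = 0.0694). The median of all probes was 0.03, and -0.01 with median scaling. Dim probes are limited by the background, which compresses their folds.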
